A study of Mus musculus with 48 samples.

Results

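The period genes Per1, Per2 and Per3, the cryptochrome genes Cry1 and Cry2, and Ciart (also called Chrono) encode the repressors of the circadian clock. They were taken by gene symbol from the deposited count tables and make 6 of the 42713 genes listed there. In the clock of mammals, the activators CLOCK and BMAL1 switch these genes on through E-box elements in their promoters. PER and CRY proteins then gather into a complex that shuts the activators off, and they are phosphorylated and degraded before the next cycle begins. CIART acts in the same direction on CLOCK and BMAL1. In pancreatic islets, cell clocks are known to time the release of insulin and glucagon.

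RNA was sequenced from β cells, which release insulin, and α cells, which release glucagon, taken by fluorescence sorting out of the islets of male mice. The doxycycline (DOX) group drank 300 mg of the drug in water with 2% sucrose, and the control (CTR) group drank sucrose water alone. Every animal of both groups carried the reporters ProGcg-Venus and RIP-Cherry, the toxin pair Insulin-rtTA and TET-DTA, and PER2::Luc, so CTR animals had the same transgenes and the same luciferase fusion at the Per2 locus as DOX animals. In these mice the drug lets the insulin promoter drive diphtheria toxin A, which kills β cells, so that the sort collected those that survived or recovered. No group received doxycycline without the toxin alleles, so what the drug does by itself cannot be told apart from what β-cell loss does. The mice were 6 to 8 weeks old, were kept under lights for 12 of 24 h, and had food only in the dark phase from 10 days before the experiment. To cover the day, the light and feeding cycles of part of the animals had been inverted for 2 weeks. Cells were taken at zeitgeber times (ZT, hours after lights on) 0, 4, 8, 12, 16 and 20, with 2 libraries for each cell type, treatment and time. This gave 12 libraries in each of 4 conditions, DOX β, CTR β, DOX α and CTR α, and 48 in all. The labels do not say whether duplicates came from separate animals or pools, so p-values measure the spread between libraries only.

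The libraries held 16.1 to 69.9 M estimated counts. The dates in the titles place replicate 1 of ZT4 to ZT20 in an earlier run (20 libraries, 16.1 to 28.6 M) and replicate 2 with both ZT0 libraries in a later run (28 libraries, 37.4 to 69.9 M), and the run is a term in every test. The sorted cells carried their labelled markers. The summed level of 10 β-cell markers was 216300 to 392100 CPM (counts scaled to library size) in DOX β libraries and 243100 to 435900 CPM in CTR β libraries, against 1023 to 4794 CPM in α libraries. The 8 α-cell markers summed to 230400 to 463500 CPM in α libraries. In these bulk libraries, fewer cells with a transcript and less of it per cell cannot be told apart.

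On the mouse genome GRCm38 and as the files list them, Per1 (ENSMUSG00000020893.17) lies on the plus strand at chr11:69095217-69109960 and Per2 (ENSMUSG00000055866.9) on the minus strand at chr1:91415982-91459324. Per3 (ENSMUSG00000028957.12) lies at chr4:151003652-151044665, Cry1 (ENSMUSG00000020038.10) at chr10:85131700-85185064, Cry2 (ENSMUSG00000068742.11) at chr2:92403646-92434043 and Ciart (ENSMUSG00000038550.10) at chr3:95878503-95882251, all on the minus strand. All 6 are protein-coding genes. RefSeq promoters (GRCm38.p6, 250 bases before to 50 after a start) were at hand for 5 members, with 2 starts for Per1. They were searched on both strands for the E-box (CACGTG), which CLOCK and BMAL1 bind, for the E'-box (CACGTT or AACGTG), for the D-box (TTATGTAA, TTACATAA or TTACGTAA), which DBP, TEF and HLF bind, and for the cAMP response element CRE (TGACGTCA). The 3 promoters with more than 1 element are shown because they differ in kind, with the elements in capitals.
Ciart, chr3:95882179-95882478, minus strand: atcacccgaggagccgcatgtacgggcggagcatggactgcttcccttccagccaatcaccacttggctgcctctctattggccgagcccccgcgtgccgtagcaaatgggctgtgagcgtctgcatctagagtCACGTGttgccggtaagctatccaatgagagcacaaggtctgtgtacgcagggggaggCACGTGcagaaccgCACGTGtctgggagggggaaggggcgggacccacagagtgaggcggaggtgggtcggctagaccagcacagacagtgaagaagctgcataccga
Per3, chr4:151044616-151044915, minus strand: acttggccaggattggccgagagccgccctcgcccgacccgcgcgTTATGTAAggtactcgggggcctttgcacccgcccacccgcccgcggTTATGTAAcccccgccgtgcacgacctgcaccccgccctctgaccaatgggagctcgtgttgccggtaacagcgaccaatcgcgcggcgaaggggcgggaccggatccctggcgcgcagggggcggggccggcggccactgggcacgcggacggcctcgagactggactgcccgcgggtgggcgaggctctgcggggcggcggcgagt
Cry1, chr10:85185005-85185304, minus strand: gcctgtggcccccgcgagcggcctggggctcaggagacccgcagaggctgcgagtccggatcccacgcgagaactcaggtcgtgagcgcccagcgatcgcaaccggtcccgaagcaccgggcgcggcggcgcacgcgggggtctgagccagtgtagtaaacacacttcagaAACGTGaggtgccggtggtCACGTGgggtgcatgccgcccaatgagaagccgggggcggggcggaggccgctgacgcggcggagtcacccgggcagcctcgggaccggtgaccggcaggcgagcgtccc
Ciart held 3 E-boxes, the first at -116 to -111 from the start, and 0.0883% of 32851 RefSeq promoters hold 3 or more. Per3 held 2 D-boxes, at -205 to -198 and -158 to -151, and no E-box in this window, and 0.0244% of promoters hold 2 D-boxes or more. Cry1 held an E-box and an E'-box. Of the others, Cry2 held 1 E'-box, the first start of Per1 held 1 E-box, and its second start held none of the 4 elements. E-boxes occur in 7.15% of promoters, E'-boxes in 4.68%, D-boxes in 1.06% and CREs in 1.79%. A match describes letters in a window and is not evidence of binding.

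Compared per length, Cry2 was the most abundant of the 6 transcripts and Per3 or Ciart the least. Cry2 in RPKM, a measure scaled to gene length and library total, averaged 15.7 ± 5.12 in DOX β cells, 22.9 ± 8.16 in CTR β cells, 19.1 ± 4.79 in DOX α cells and 20.9 ± 5.22 in CTR α cells (SD, n = 12 each), and Cry2 had the highest RPKM of the 6 in 44 of 48 libraries. Per1 averaged 9.12 ± 3.95, 13.2 ± 7.94, 10.9 ± 3.70 and 12.4 ± 5.78 RPKM in the same order of conditions, and Cry1 7.81 ± 4.93, 9.12 ± 5.26, 8.04 ± 5.21 and 8.53 ± 4.27 RPKM. Per2 followed with 5.04 ± 2.39 RPKM in DOX β cells, 6.90 ± 3.41 in CTR β cells, 5.08 ± 3.56 in DOX α cells and 5.14 ± 2.64 in CTR α cells. The mean levels of Per1, Cry1 and Per2 lay within 1 SD of their neighbours in this order, and each spread includes the daily cycle. Per3 stood at 0.745 ± 0.700 RPKM in DOX β cells, 1.40 ± 0.933 in CTR β cells, 1.69 ± 1.49 in DOX α cells and 1.62 ± 1.10 in CTR α cells. In β cells Per3 was the lowest of the 6 in 23 of 24 libraries. Ciart was the lowest in all 24 α libraries, at 0.333 ± 0.358 RPKM in DOX α cells and 0.321 ± 0.356 in CTR α cells, against 4.32 ± 3.20 in DOX β cells and 9.25 ± 8.85 in CTR β cells. In β cells the mean of Ciart lay within 1 SD of those of Per1, Per2 and Cry1 by its own spread in CTR mice and of Per2 in DOX mice.

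A daily rhythm was tested in each condition as a cosine of 24 h with the run as a term, and a gene is called where its adjusted p is under 0.05 (edgeR, Benjamini-Hochberg over all genes tested). Of the 6 repressors, 3 were called in DOX β cells (Per2, Per3 and Cry1), where 11.6% of all genes were called, and 4 in CTR β cells (Per1, Per2, Cry1 and Cry2), against 2.17% of all genes. In DOX α cells 4 of 5 tested were called, against 2.82% of all genes, and in CTR α cells 4 of 5, against 4.49%. They were Per2, Per3, Cry1 and Cry2 both times. Ciart did not pass the filter on low counts in the α rhythm tests. Amplitudes are given as the log2 distance from the daily mean to the peak. With p-values not adjusted, 5 members were under 0.05 in each of the 4 conditions, of 6 tested in β and 5 in α cells. The share of all genes with an unadjusted p under 0.05 was not counted, here or for the unadjusted counts further below. DESeq2 added Per1 in DOX β cells (adjusted p = 0.0143), Per3 in CTR β cells (0.0151) and Per1 in CTR α cells (0.0293). DESeq2 also called more of all genes than edgeR. It called 3014 of 13613 in DOX β, 1317 of 13302 in CTR β and 1518 of 13349 in CTR α cells. The share of all genes called by edgeR rests on single libraries. Leaving out 1 at a time moved the number of genes called from 1576 to between 112 and 2317 in DOX β, from 288 to between 20 and 893 in CTR β, from 375 to between 41 and 560 in DOX α and from 600 to between 179 and 1141 in CTR α cells. Within the earlier run alone, which has 5 libraries per condition, 2 members were called in DOX β cells (146 of 13376 genes), 4 in CTR β cells (341 of 12880), 2 in DOX α cells (62 of 12956) and 1 in CTR α cells (26 of 12985). Within the later run alone, with 7 libraries per condition, edgeR called 0, 0, 0 and 1 of all genes and no member, so calls there say nothing about the members. Their amplitudes in the later run were 1.57 for Per3, 1.25 for Cry1 and 0.65 for Per2 in DOX β cells, and 0.76 for Per1, 0.61 for Per2, 0.70 for Cry1 and 0.44 for Cry2 in CTR β cells. In DOX α cells they were 1.43 for Per3, 1.34 for Cry1, 1.23 for Per2 and 0.45 for Cry2, and in CTR α cells 1.003 for Per3, 0.94 for Cry1, 0.98 for Per2 and 0.39 for Cry2.

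**Figure D1:**
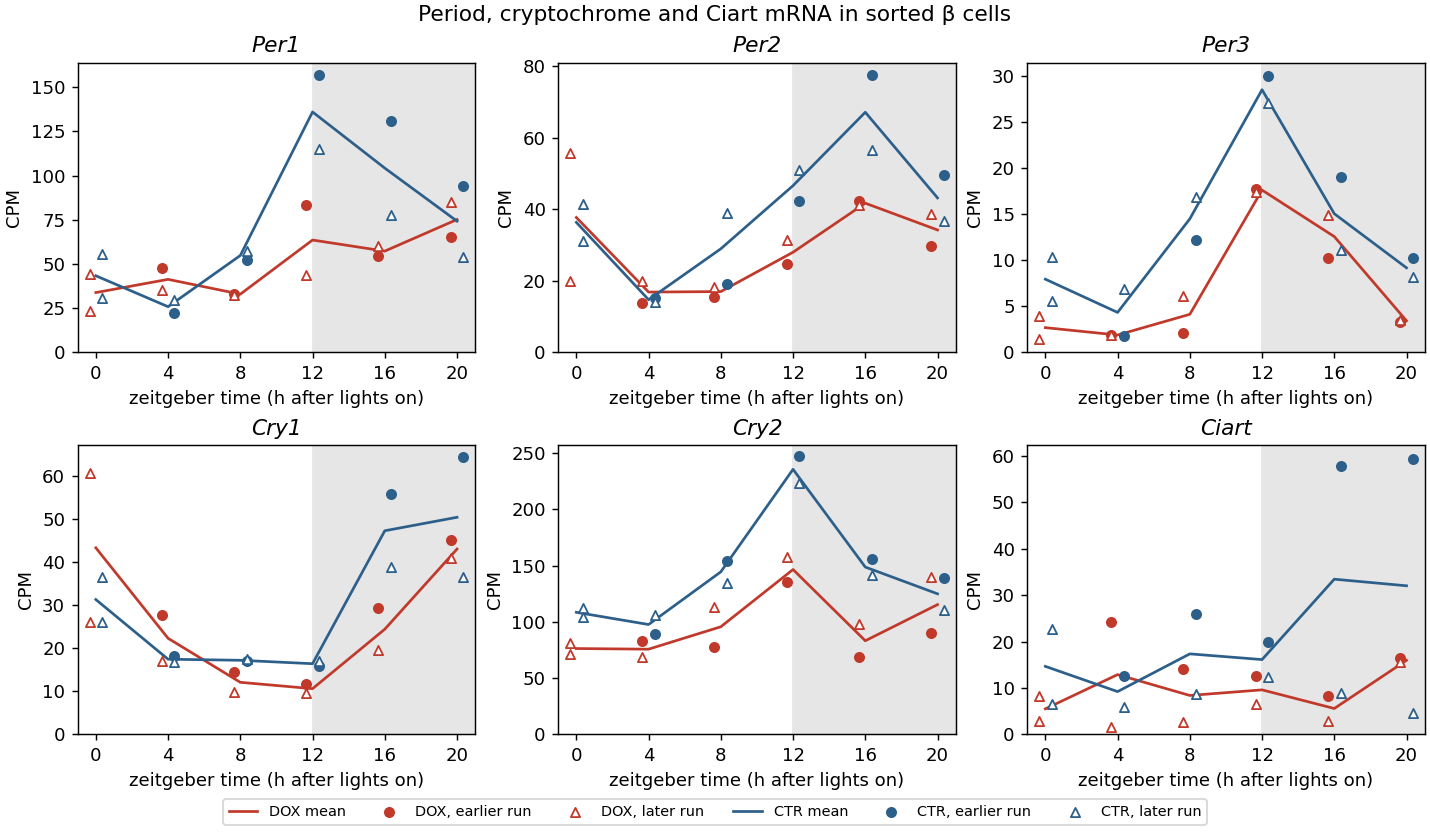
CPM of the 6 clock repressors in sorted β cells (y axes, linear, starting at 0) against zeitgeber time (x axes, h after lights on). Each point is a library (filled circles from the earlier run, open triangles from the later run), lines join the means of the 2 libraries at each time in DOX and CTR β cells, and grey marks the dark phase. Per3 and Cry2 peak at ZT12 with DOX below CTR, and the earlier-run points of Ciart lie above those of the later run.

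Per3, the period protein that mouse clocks can keep time without, had the largest amplitude in the fit of each condition alone. These fits held 6 members in β cells and 5 in α cells, without Ciart. The lead of Per3 was within 1 SE in CTR β cells (over Per1, 1.04 ± 0.16) and in DOX α cells (over Cry1, 1.24 ± 0.15). In joint fits with β cells, on low counts, Ciart stood at 1.40 in DOX α and 0.86 in CTR α cells, beside 1.34 and 1.14 for Per3. Across libraries Per3 read 1.43 to 17.8 CPM in DOX β cells (median 3.67) and 1.73 to 29.97 CPM in CTR β cells (median 10.7). In α cells it read 4.91 to 43.0 CPM with DOX (median 9.28) and 5.62 to 36.5 CPM in CTR (median 10.7). ZT12, the start of the dark phase, held the highest mean in all 4 conditions. At that time the 2 libraries read 17.8 and 17.4 CPM in DOX β cells, 29.97 and 27.0 CPM in CTR β cells, 30.6 and 40.6 CPM in DOX α cells, and 36.5 and 29.4 CPM in CTR α cells. The fitted rhythm in DOX β cells had an amplitude of 1.68 ± 0.22 and a peak at 13.76 ± 0.49 h (SE, n = 12, adjusted p = 0.00686), a 10.2-fold range from trough to peak. In CTR β cells the amplitude was 1.11 ± 0.24 with a peak at 13.14 ± 0.81 h, and this rhythm missed the threshold (adjusted p = 0.063). It passed by DESeq2 (adjusted p = 0.0151), in the earlier run alone (amplitude 1.96, adjusted p = 0.0352), without ZT0 (0.037), and without CTR β replicate 2 of ZT0 or of ZT20 (0.0454 and 0.0445). In α cells the amplitude was 1.34 ± 0.20 with DOX (adjusted p = 0.00891) and 1.14 ± 0.13 in CTR (adjusted p = 0.00204), and no single library ended either call.

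Cry1, a strong repressor among the cryptochromes, cycled in all 4 conditions with its low point at ZT12. Its libraries read 9.56 to 60.5 CPM in DOX β cells (median 22.7), 15.8 to 64.2 CPM in CTR β cells (median 22.1), 7.84 to 52.9 CPM in DOX α cells (median 22.4) and 9.66 to 49.5 CPM in CTR α cells (median 29.7). At ZT12 the libraries held 11.6 and 9.56 CPM in DOX β cells, against 15.8 and 16.9 CPM in CTR β cells. At ZT16 it read 29.2 and 19.5 CPM in DOX β cells against 55.7 and 38.7 CPM in CTR β cells, without overlap. At ZT20 the groups overlapped, with 45.1 and 40.8 CPM in DOX β cells and 64.2 and 36.4 CPM in CTR β cells. The fitted peak was at 22.04 ± 0.39 h in DOX β cells (amplitude 1.20 ± 0.12, adjusted p = 0.00493) and at 19.50 ± 0.52 h in CTR β cells (amplitude 0.91 ± 0.12, adjusted p = 0.0138). In α cells it was at 21.70 ± 0.44 h with DOX (amplitude 1.24 ± 0.15, adjusted p = 0.00769) and at 22.21 ± 0.51 h in CTR (amplitude 0.98 ± 0.13, adjusted p = 0.00576). The call in CTR β cells was lost without replicate 1 of ZT8 (adjusted p = 0.0571), and the others held without any single library.

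Cry2, the other cryptochrome, had a shallow cycle that crested with Per3. Its libraries read 68.7 to 157.6 CPM in DOX β cells (median 86.5), 88.9 to 247.9 CPM in CTR β cells (median 136.9), 93.3 to 201.1 CPM in DOX α cells (median 117.2) and 86.1 to 187.9 CPM in CTR α cells (median 127.2). ZT12 gave the highest mean everywhere, with 135.5 and 157.6 CPM in DOX β cells and 247.9 and 223.4 CPM in CTR β cells. The amplitude was 0.37 ± 0.13 in DOX β cells, which missed the threshold (adjusted p = 0.155), and 0.52 ± 0.10 in CTR β cells (peak 12.82 ± 0.68 h, adjusted p = 0.0355). It was 0.40 ± 0.07 in DOX α cells (adjusted p = 0.025) and 0.44 ± 0.05 in CTR α cells (adjusted p = 0.00224). The call in CTR β cells was lost without replicate 2 of ZT0, either library of ZT4 or ZT12, or replicate 1 of ZT8, ZT16 or ZT20 (adjusted p up to 0.114). That in DOX α cells was lost without either library of ZT12, replicate 1 of ZT4 or ZT20, or replicate 2 of ZT8 (adjusted p up to 0.0769).

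Per1, a period gene that also responds quickly to cAMP and other signals, had its widest cycle in CTR β cells. The libraries read 23.2 to 85.1 CPM in DOX β cells (median 45.8), 22.0 to 157.0 CPM in CTR β cells (median 56.5), 35.5 to 88.1 CPM in DOX α cells (median 59.8) and 33.5 to 134.9 CPM in CTR α cells (median 70.7). At ZT12 it stood at 83.5 and 43.4 CPM in DOX β cells, against 157.0 and 115.1 CPM in CTR β cells. By edgeR the rhythm was called in CTR β cells alone, with an amplitude of 1.04 ± 0.16 and a peak at 14.75 ± 0.59 h (adjusted p = 0.0278). In DOX β cells the amplitude was 0.52 ± 0.16 with a peak at 17.19 ± 1.17 h (adjusted p = 0.0907), in DOX α cells 0.39 ± 0.13 (adjusted p = 0.201), and in CTR α cells 0.67 ± 0.16 (adjusted p = 0.0636). The CTR β call was lost without replicate 1 of ZT4, ZT8 or ZT16 or replicate 2 of ZT12 (adjusted p up to 0.0728). Without replicate 1 of ZT0, the rhythm passed in DOX β cells (adjusted p = 0.0445) and in CTR α cells (adjusted p = 0.00723).

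Per2, whose protein scaffolds the repressor complex, was called in all 4 conditions. Its libraries read 13.6 to 55.6 CPM in DOX β cells (median 27.1), 14.0 to 77.7 CPM in CTR β cells (median 40.1), 8.67 to 65.5 CPM in DOX α cells (median 24.9) and 9.53 to 48.6 CPM in CTR α cells (median 31.3). ZT4 was the lowest and ZT16 the highest time in every condition, and at ZT16 the libraries held 42.3 and 41.0 CPM in DOX β cells against 77.7 and 56.6 CPM in CTR β cells. The amplitude was 0.69 ± 0.15 in DOX β cells (adjusted p = 0.0379), 0.90 ± 0.15 in CTR β cells (adjusted p = 0.0344), 1.12 ± 0.20 in DOX α cells (adjusted p = 0.0309) and 0.94 ± 0.17 in CTR α cells (adjusted p = 0.0305). The peaks were at 18.24 ± 0.85, 16.24 ± 0.65, 18.49 ± 0.68 and 17.71 ± 0.72 h in that order. These calls lay close to the threshold. In DOX β cells the call was lost without any single library outside ZT0 (adjusted p up to 0.0937). In CTR β cells it was lost without either library of ZT4 or ZT16, replicate 1 of ZT8 or ZT20, or replicate 2 of ZT0 or ZT12 (up to 0.114). In DOX α cells it was lost without either library of ZT8, ZT12 or ZT16, or replicate 1 of ZT4 or ZT20 (up to 0.114). In CTR α cells it was lost without replicate 2 of ZT12 or any library of ZT4, ZT8, ZT16 or ZT20 (up to 0.096). The 2 libraries of ZT0 differed in DOX mice, with 19.7 and 55.6 CPM of Per2 in β cells and 19.1 and 65.5 CPM in α cells. Cry1 showed the same split at ZT0, with 25.96 and 60.5 CPM in DOX β cells and 23.9 and 50.8 CPM in DOX α cells, replicate 2 being the higher in both cell types.

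Ciart differed between the 2 runs. In DOX β cells its libraries read 1.62 to 24.1 CPM (median 8.23), in CTR β cells 4.66 to 59.4 CPM (median 12.4), in DOX α cells 0.0384 to 2.98 CPM (median 0.51) and in CTR α cells 0 to 2.89 CPM (median 0.522). Among the 20 pairs of libraries from the same time and condition but different runs, the earlier run was higher in 19. For the other members this number lay between 7 (Cry2) and 14 (Cry1). At ZT16 in CTR β cells, Ciart stood at 57.9 CPM in the earlier and 9.01 CPM in the later run, and at ZT20 at 59.4 and 4.66 CPM. No rhythm was called in β cells (amplitude 0.50 ± 0.34 with DOX, adjusted p = 0.51, and 0.54 ± 0.29 in CTR, adjusted p = 0.531). In α cells the deposited estimated counts of Ciart were 2 to 155 in DOX libraries and 0 to 76 in CTR libraries.

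**Figure D2:**
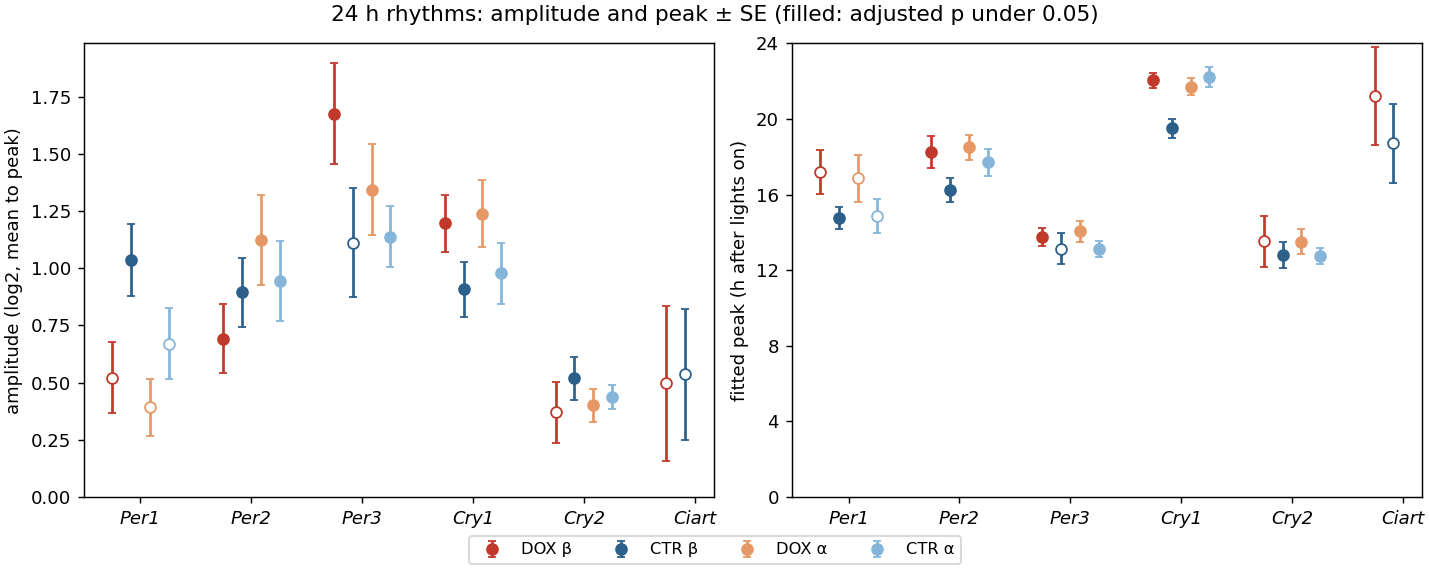
Fitted amplitude (log2 distance from the daily mean to the peak) and fitted peak (h after lights on) of each member in DOX β, CTR β, DOX α and CTR α cells, with SE bars from fits over 12 libraries; filled points passed the rhythm test. The peaks run from Cry2 and Per3 near ZT13 through Per1 and Per2 to Cry1 near ZT20 to ZT22.

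In CTR β cells the members peaked in the order of Cry2 at 12.82 ± 0.68 h and Per3 at 13.14 ± 0.81 h, then Per1 at 14.75 ± 0.59 h, Per2 at 16.24 ± 0.65 h and Cry1 at 19.50 ± 0.52 h. Cry2 and Per3 lay within 1 SE of each other in all 4 conditions. In DOX β cells Per1 (17.19 ± 1.17 h) and Per2 (18.24 ± 0.85 h) also lay within 1 SE, by the SE of Per1. No test was made between genes. The same order was seen in DOX β cells, with Cry2 at 13.52 ± 1.34 h and Cry1 at 22.04 ± 0.39 h at its ends, and in CTR α cells, with Cry2 at 12.75 ± 0.44 h and Cry1 at 22.21 ± 0.51 h. DOX α cells held it too, from Cry2 at 13.51 ± 0.68 h to Cry1 at 21.70 ± 0.44 h. Some of these peaks belong to rhythms that were not called. These were Cry2 and Per1 in DOX β cells, Per3 in CTR β cells, and Per1 in DOX α and CTR α cells. Across the 48 libraries, with the mean of each condition and run removed, log2 CPM of Per3 and Cry2 correlated at 0.79 and that of Per1 and Per2 at 0.73. Cry1 ran against Cry2 (-0.46) and Per3 (-0.39). These correlations describe shared time courses, and the points share libraries.

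In β cells, 3 of the 6 repressors were lower with DOX as an average over the day and none was higher. Of all genes tested, 23.1% were lower with DOX in β cells and 23.8% higher (46.9% in either direction). Per3 fell by a log2 fold change of -1.16 ± 0.23 (SE, n = 12 per group, adjusted p = 0.000386), Cry2 by -0.51 ± 0.09 (adjusted p = 0.00015) and Ciart by -0.98 ± 0.34 (adjusted p = 0.0207). Per2 stood at -0.38 ± 0.16 (adjusted p = 0.0557), Per1 at -0.39 ± 0.19 (adjusted p = 0.0943) and Cry1 at -0.25 ± 0.16 (adjusted p = 0.212). The median over the 6 was -0.45, beside -0.01 over all genes tested. Within the earlier run the log2 fold change of Per3 was -1.13 (adjusted p = 0.0182) and within the later run -1.12 (0.0217). Cry2 stood at -0.73 (0.00462) and -0.36 (0.0372) in these runs, and Ciart at -1.03 (0.10) and -1.09 (0.107). Per2 stood at -0.55 (0.00744) in the earlier and -0.21 (0.551) in the later run, Per1 at -0.46 (0.245) and -0.34 (0.348), and Cry1 at -0.28 (0.274) and -0.20 (0.581). DESeq2 called Per2 too (-0.37, adjusted p = 0.0348), among 7429 of 15188 genes that it called.

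**Figure D3:**
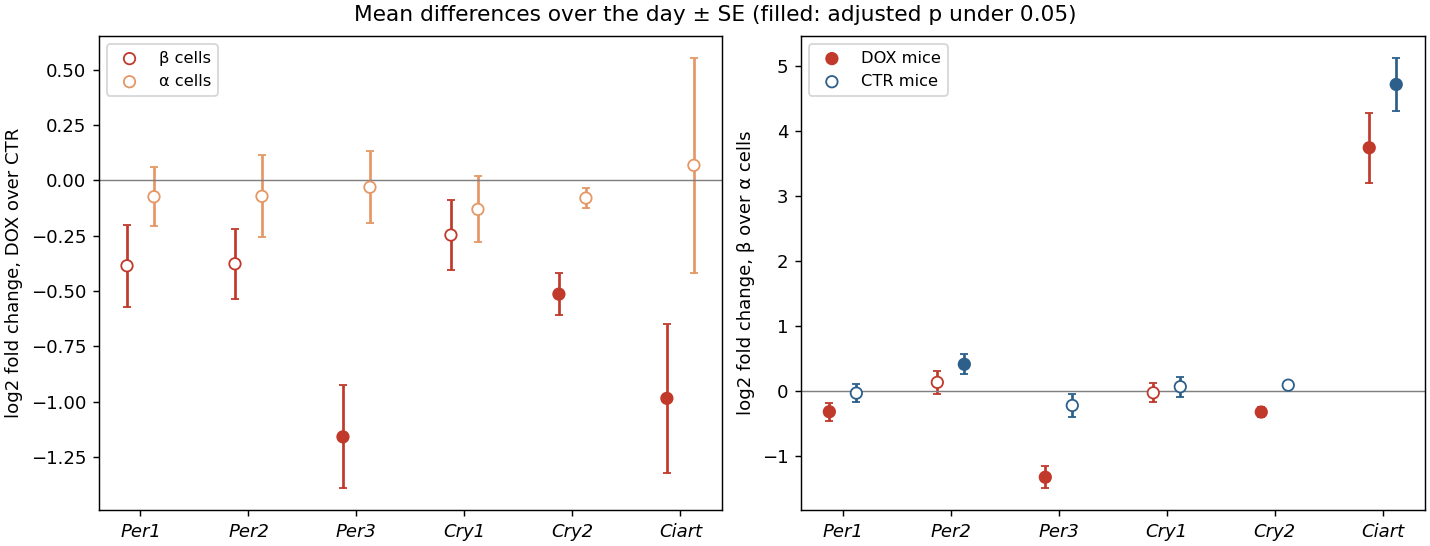
Log2 fold changes of DOX over CTR (left) and of β over α cells (right) for each member, as averages over the 6 times with SE bars (12 libraries per group); filled points passed the test at an adjusted p of 0.05. Per3, Cry2 and Ciart lie below 0 for DOX in β cells, while all members lie near 0 for DOX in α cells, and Ciart lies far above 0 for β over α.

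Seen by time, Cry2 in DOX β cells lay below CTR β cells at all 6 times, and without overlap of the 2 libraries at each time but ZT20. At ZT16, for example, it read 68.7 and 97.7 CPM in DOX β cells against 155.7 and 141.8 CPM in CTR β cells. Among all genes tested in β cells, 21% had a lower DOX mean of log2 CPM at all 6 times and 8.63% lay below without overlap at 5 or more times. Per3 was lower at all 6 times too, without overlap at ZT0, ZT8, ZT12 and ZT20, a count of times reached by 15.6% of genes. At ZT8 it stood at 2.06 and 6.12 CPM in DOX β cells, against 12.1 and 16.8 CPM in CTR β cells, a difference of -1.99 in mean log2 CPM. At ZT16 the groups overlapped, with 10.2 and 14.8 CPM in DOX β cells and 19.0 and 11.03 CPM in CTR β cells. Ciart was lower at all 6 times in mean log2 CPM, without overlap at ZT16 alone. In mean CPM it was higher with DOX at ZT4 alone (12.9 CPM in DOX β and 9.21 CPM in CTR β cells). Apart from ZT0, the 2 libraries of a group came from different runs, which differed for Ciart, so its overlaps include the run difference. Per1, Per2 and Cry1 each lay below without overlap at 3 times. The share of all genes below without overlap at 3 times or fewer was not counted, so these counts may be ordinary. At ZT8, ZT12 and ZT16 all 6 had a lower mean log2 CPM with DOX (median difference -0.71, -0.72 and -0.84), while at ZT4 3 of the 6 did (median -0.10). No share of all genes was counted for single times, so these values describe the members only. Per1 at ZT4 lay the other way without overlap, at 47.4 and 34.9 CPM in DOX β cells against 22.0 and 29.3 CPM in CTR β cells.

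Single libraries decided some of these values. The call of Ciart was lost without CTR β replicate 1 of ZT0 (-0.81, adjusted p = 0.0555), without ZT0 altogether (-0.88, adjusted p = 0.051), and with no run term (-1.05, adjusted p = 0.0928). Without DOX β replicate 2 of ZT0, the library with high Per2 and Cry1, both genes were called (Per2 -0.50, adjusted p = 0.00387, and Cry1 -0.37, adjusted p = 0.0208). Per2 was also called without CTR β replicate 2 of ZT0, ZT4 or ZT20, without CTR β replicate 1 of ZT8, or without DOX β replicate 2 of ZT4 (-0.40 to -0.43, adjusted p = 0.0313 to 0.0484). Per1 was called without replicate 1 of ZT4 in CTR β cells (-0.48, adjusted p = 0.0271) or in DOX β cells (-0.46, adjusted p = 0.0474). The calls of Per3 and Cry2 held without any single library.

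Markers of several other cell types moved with DOX in the β libraries, where 23.8% of all genes were higher and 23.1% lower. All 15 markers of macrophages and dendritic cells were higher with DOX, and their summed level was 143.8 to 1604 CPM in DOX β libraries and 57.3 to 406.5 CPM in CTR β libraries, with no marker at 0 in all libraries. Among 6 tested α-cell markers 4 were higher and 1 lower, with a summed level of 1731 to 3960 CPM in DOX β libraries and 708 to 1321 CPM in CTR β libraries. Markers of δ, PP and ε cells were higher in 5 of 6 tested (656.6 to 1679 CPM with DOX, 356.9 to 1145 CPM in CTR). Stellate cell and fibroblast markers were higher in 4 of 7 tested (1.08 to 395.1 CPM with DOX, 0.318 to 52.6 CPM in CTR). Of 5 ductal markers tested, 2 were higher and 1 lower, of 4 endothelial markers 1 was higher, and of 8 acinar markers 0 were called. Among the 10 β-cell markers 2 were higher and 5 lower. With the mean of the macrophage and dendritic markers as a covariate, Per3 stood at -1.67 (adjusted p = 0.00201) and Cry2 at -0.63 (adjusted p = 0.00637), and the call of Ciart was lost (-1.18, adjusted p = 0.149). Under this covariate Per2 stood at -0.09 (adjusted p = 0.823), Cry1 at -0.03 (0.947) and Per1 at -0.29 (0.54). The part of the other cell types was not tested. Gene models also overlap. Camta1 shares its strand with Per3 and had a log2 fold change of -0.39 ± 0.09 with DOX in β cells (adjusted p = 0.00117, median 5.44 CPM in DOX β and 7.09 CPM in CTR β cells). D930015M05Rik lies opposite to Cry2, where this unstranded kit cannot part them, at medians of 1.42 and 2.04 CPM in the same cells (-0.63 ± 0.14, adjusted p = 0.000929).

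In α cells, which do not use the insulin promoter, none of the 6 was called for DOX against CTR by edgeR's test, against 0.127% of all genes (0.0804% higher and 0.0469% lower). The log2 fold changes ran from -0.13 ± 0.15 for Cry1 to 0.07 ± 0.49 for Ciart, and 0 of them had an unadjusted p under 0.05. DESeq2 called 0 members as well, and 125 of 14932 genes. Cry2 was the most precise, at -0.08 ± 0.05 (adjusted p = 0.74), and Per3 stood at -0.03 ± 0.16 (adjusted p = 0.989). Per2 (-0.07 ± 0.19) and Per1 (-0.07 ± 0.13) lay as close to 0. By time, 0 of the 6 had a lower DOX mean at all 6 times in α cells (2.4% of all genes did), and none lay below without overlap at more than 1 time. The share of all genes was counted only at higher limits, 4 or more times (0.616%) and 5 or more (0.1%). It therefore cannot be set beside the limit of 1 time. Per1 lay below at ZT12, with 88.1 and 69.4 CPM in DOX α cells against 134.9 and 112.8 CPM in CTR α cells. Cry1 lay above at ZT20, with 48.6 and 52.9 CPM in DOX α cells against 37.6 and 39.6 CPM in CTR α cells. A test of the difference of the DOX effect between the cell types, β minus α, called 2 members, both lower, where 12.8% of all genes were lower and 25.5% called in all. Per3 differed by -1.14 ± 0.29 (adjusted p = 0.00357) and Cry2 by -0.45 ± 0.11 (adjusted p = 0.00174), and neither call was lost without any single library. A pairing of β with α libraries by replicate number was not part of this test. In the earlier run alone Per3 differed by -0.80 (adjusted p = 0.132) and Cry2 by -0.65 (0.021), and in the later run alone Per3 by -1.27 (0.0658) and Cry2 by -0.29 (0.201). Ciart differed by -1.10 ± 0.58 (adjusted p = 0.163), Per1 by -0.33 ± 0.24, Per2 by -0.32 ± 0.25 and Cry1 by -0.13 ± 0.23, and none of these 4 passed.

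**Figure D4:**
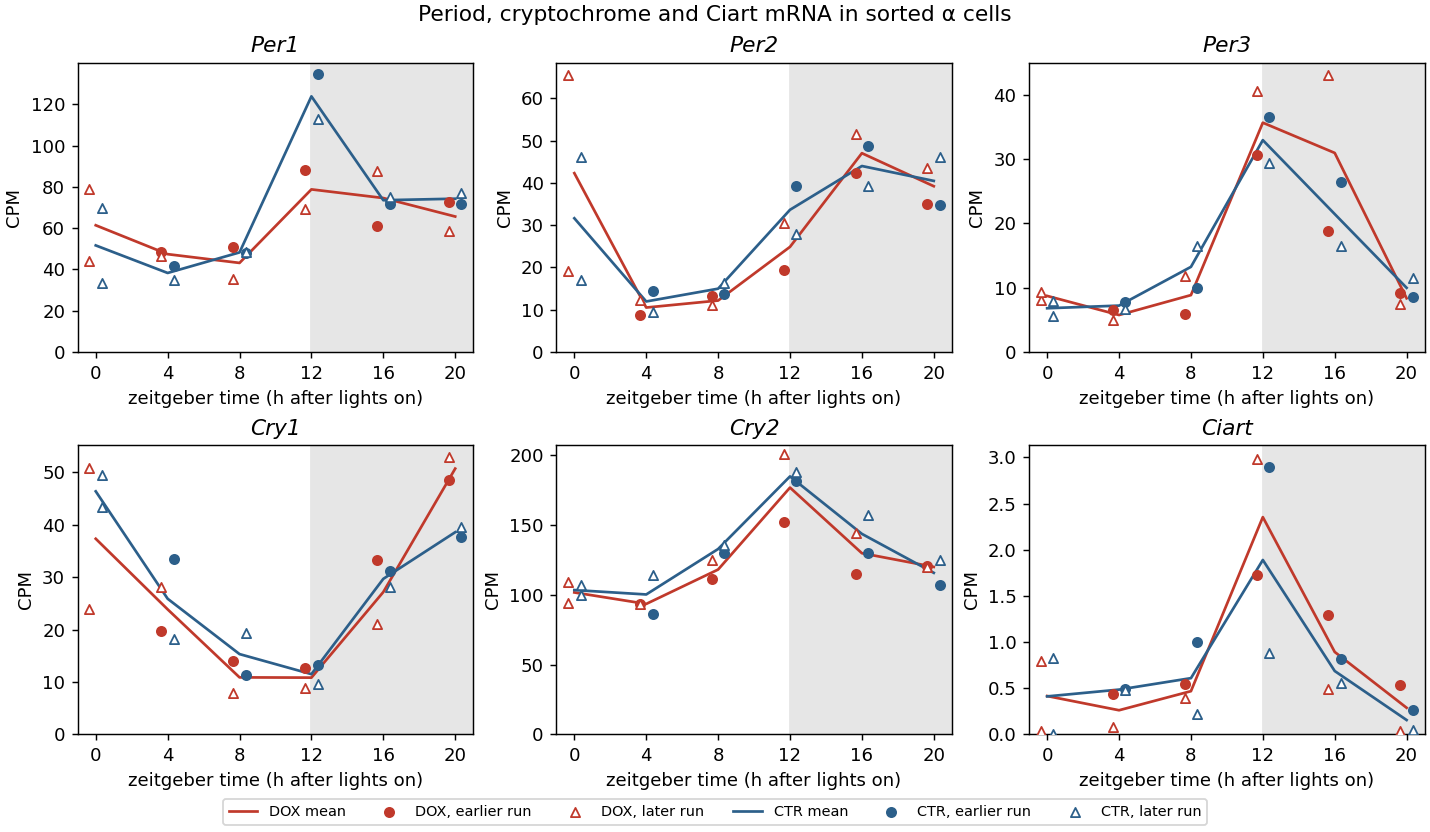
CPM of the 6 clock repressors in sorted α cells (y axes, linear, starting at 0) against zeitgeber time (x axes, h after lights on), drawn as for β cells with DOX and CTR α libraries. Per1 at ZT12 has a mean of 78.8 CPM in DOX and 123.8 CPM in CTR α cells, Cry1 at ZT20 one of 50.7 CPM in DOX and 38.6 CPM in CTR α cells, and Ciart stays under 3 CPM.

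Between the cell types, Ciart set β cells apart most. It was higher in β than in α cells by a log2 fold change of 3.74 ± 0.53 in DOX mice (adjusted p = 2.52e-06) and of 4.71 ± 0.41 in CTR mice (adjusted p = 1.11e-09), and every β library stood above the median α library. Within either treatment Ciart did not pass the low-count filter in α cells alone, so it entered these tests through its β libraries. The sizes of its fold changes rest on low α counts (2 to 155 in DOX and 0 to 76 in CTR libraries). In DOX mice 4 members were called, where 71.2% of all genes were called, 35.6% higher and 35.7% lower in β cells. These were Ciart, Per3, lower in β cells by -1.32 ± 0.17 (adjusted p = 6.63e-07), Cry2, lower by -0.32 ± 0.08 (adjusted p = 0.000726), and Per1, lower by -0.32 ± 0.14 (adjusted p = 0.0493). In CTR mice 2 members were called, both higher in β cells, where 71.4% of all genes were called, 34.2% higher and 37.3% lower. They were Ciart and Per2 (0.41 ± 0.16, adjusted p = 0.0233). Per3 stood at -0.22 ± 0.18 (adjusted p = 0.277) and Cry2 at 0.09 ± 0.06 (adjusted p = 0.183) between the cells of CTR mice. In the earlier run alone Cry2 was called there (0.28, adjusted p = 0.0145), and in the later run it stood at -0.01. Within the runs, Ciart stood at 4.01 and 3.45 in DOX mice and at 4.81 and 4.55 in CTR mice, earlier run first, and Per3 at -1.24 and -1.37 in DOX mice, all called. Cry2 in DOX mice stood at -0.40 and -0.29, called in both. Per1 in DOX mice was called in neither run, and leaving out a single library ended its call in 12 of 24 cases. These libraries were DOX β replicate 1 of ZT0, ZT8, ZT16 and ZT20 and replicate 2 of ZT4 and ZT12, and DOX α replicate 1 of ZT8, replicate 2 of ZT16 and both of ZT4 and ZT12 (-0.24 to -0.33, adjusted p = 0.051 to 0.0914). Per2 in CTR mice lost its call in the later run alone (0.46, adjusted p = 0.0995) and without CTR β replicate 2 of ZT8 (0.30, adjusted p = 0.0548). The α libraries also held markers of δ, PP and ε cells, with a summed level of 22090 to 58790 CPM, against 356.9 to 1679 CPM in β libraries. The macrophage and dendritic markers had median sums of 832.4 CPM in β and 87.9 CPM in α cells of DOX mice, and of 200.2 CPM in β and 75.0 CPM in α cells of CTR mice. Their part in these differences was not tested.

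Differences of the rhythm itself, in amplitude or peak, were called for 0 members in each of 4 tests by edgeR, and DESeq2 called 0 too. Of all genes, edgeR called 0% for DOX against CTR in β cells, 0% for DOX against CTR in α cells, 0.0651% for β against α cells in DOX mice and 0% in CTR mice. DESeq2 called 3 of 15188, 0 of 14932, 187 of 15370 and 104 of 14945 genes in that order. Without adjustment, the p of 2 members was under 0.05 for DOX against CTR in β cells. Cry1 peaked at 22.00 h in DOX β cells and at 19.54 h in CTR β cells, a difference of 2.46 ± 0.67 h (adjusted p = 0.929). The amplitude of Per1 was 0.53 in DOX β cells and 1.02 in CTR β cells, a difference of -0.49 ± 0.23 (adjusted p = 0.999). In α cells 0 members reached an unadjusted p of 0.05 for DOX against CTR. The peak of Cry1 lay -2.70 ± 0.80 h apart between β and α cells in CTR mice, at 19.49 h in β cells and 22.19 h in α cells (adjusted p = 0.549). In DOX mice it lay at 22.04 h in β cells and 21.71 h in α cells (0.33 ± 0.65 h). There 1 member, Ciart, had an unadjusted p under 0.05 (adjusted p = 0.479). Ciart had not passed the low-count filter in DOX α cells alone, where its counts were 2 to 155. Its p therefore rests on low α counts and is no support for a rhythm difference. A p that misses the threshold does not show that the rhythms are alike.

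Among the 14 other clock genes, 10 of 13 tested changed with DOX in β cells, 2 higher and 8 lower, beside 46.9% of all genes, with a median log2 fold change of -0.39. Lower were Tef (-0.80 ± 0.13, adjusted p = 4.25e-05), Hlf (-1.16 ± 0.22) and Dbp (-1.18 ± 0.23), the activators that bind D-boxes, and Bhlhe41, a repressor that binds E-boxes (-0.64 ± 0.13). Arntl, which encodes BMAL1, stood at 0.03 ± 0.19 (adjusted p = 0.918). In α cells 0 of 14 were called by edgeR, beside 0.127% of all genes, and 0 had an unadjusted p under 0.05 (median -0.04). The β minus α difference was called for 6 of 14, all lower, where 12.8% of all genes were lower and 25.5% called in all. Tef stood at -0.67 ± 0.16 (adjusted p = 0.00223). Rhythms were called for 6 of 13 of these genes in DOX β cells, 5 of 13 in CTR β cells, 9 of 12 in DOX α cells and 9 of 12 in CTR α cells. The shares of all genes called were 11.6%, 2.17%, 2.82% and 4.49% in that order. Arntl peaked at 1.19 h in DOX β cells and 22.77 h in CTR β cells, and at 0.35 h in DOX α cells and 0.61 h in CTR α cells.

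Of 24 genes whose products modify PER and CRY proteins or join them, 9 changed with DOX in β cells, 2 higher and 7 lower (median -0.08), a share below the 46.9% of all genes called. Btrc, an F-box protein that marks PER for degradation, fell by -0.41 ± 0.05 (adjusted p = 6.2e-07), and Prkaa1, a subunit of the kinase AMPK that targets CRY1, by -0.48 ± 0.06 (adjusted p = 1.62e-06). Csnk1a1, a casein kinase, fell by -0.20 ± 0.05 (adjusted p = 0.0011). Timeless, which also works at replication forks, rose by 1.27 ± 0.16 (adjusted p = 3.24e-06). In α cells 0 of the 24 were called by edgeR, beside 0.127% of all genes, and 1 had an unadjusted p under 0.05. By edgeR, rhythms were called for 4 of the 24 in DOX β cells, where 11.6% of all genes were called. In CTR β, DOX α and CTR α cells 0 were called, against 2.17%, 2.82% and 4.49% of all genes. There, 5, 2 and 5 had an unadjusted p under 0.05. A list of 24 is too small to set these counts apart from those shares. Between cell types, 18 were called in DOX mice (6 higher and 12 lower in β cells) and 16 in CTR mice (5 higher and 11 lower), beside 71.2% and 71.4% of all genes. Csnk1e, a casein kinase that phosphorylates PER, was lower in β cells by -1.001 ± 0.09 in DOX mice and -0.87 ± 0.09 in CTR mice, and Usp2, a deubiquitinase, was higher by 1.30 ± 0.12 and 1.10 ± 0.13.

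The genes whose log2 CPM followed each member most closely were sought among 10206 genes over the 48 libraries, with the means of condition and run removed. Tef came first for both Per3 (Pearson r 0.86) and Cry2 (0.89). For Per3, Naa60 (0.81) and Cry2 itself (0.79) came next, and for Cry2, Rgs2 (0.84) and Cnot8 (0.80). Per2 was followed most closely by Trak1 (0.87), Dnajc1 (0.85) and Pde4dip (0.85), and Cry1 by H2afy2 (0.88), Srsf1 (0.87) and Hspa4 (0.86). Per1 was followed by Tmem57 (0.77), Zscan29 (0.75) and Sik1 (0.74). Ciart had the weakest partners, Maff (0.72), Chd2 (0.67) and Nfkbil1 (0.66).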

How the data were processed

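Per the labels' protocols, libraries came from 300 ng of polyA RNA and a TruSeq v2 kit, which does not mark strand, and per the submitters' processing notes reads went through bcl2fastq and STAR to GRCm38. The counter is not given in the sources used here. The authors deposited estimated counts and RPKM per gene. RPKM equalled the count scaled to gene length and column total in these files (largest relative deviation 9.6e-10) and was used to compare levels between genes. All 48 columns were matched to labels by title, with 0 left over. Low counts came in steps of 2. Counts were rounded and scaled with TMM, and CPM and log2 CPM (prior count 2) were computed from them. Genes passed filterByExpr by condition (minimum count 10, total 15) and were tested by quasi-likelihood in edgeR 4.0.16 (R 4.3.3), with Benjamini-Hochberg adjustment over all genes at a threshold of 0.05. DESeq2 1.42.0 was an alternative.

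Mean differences had time (6 levels) and run as terms. Rhythms had a cosine and a sine of 24 h and the run, tested together, and rhythm differences were their interaction with treatment or cell type. SEs of fold changes were obtained by dividing the log2 value by the square root of F, and those of amplitudes and peaks by the delta method. Scripts were tested on simulated data. Duplicates differed by 20.0 to 95.6 times counting noise (chi-square per degree of freedom, halved counts), so the 2 libraries of a group were not copies of the same counts. Most pairs span both runs, so this cannot tell whether 2 libraries came from the same animals or pool. Every member was described in every comparison. Of each list, counts and up to 4 called genes with the lowest p are named where a comparison is described, and Arntl, Csnk1e, Usp2, Junb and Egr1 were named after their values were seen. The members and lists were chosen with earlier results of these data known. Same-numbered β and α libraries of DOX mice met a rule for pairing, by the correlation of their deviations with the run removed (0.107 to 0.419 at the 6 times). Those of CTR mice came close (over 0.1 at 5 times, 0.073 at ZT20) but missed the rule that every pair exceed 0.1. The labels do not say whether such libraries share animals, so the rule describes a correlation only. Alternatives were other scalings, filters, run terms, single runs, left-out libraries and times, a macrophage covariate and, chosen after seeing the data, halved counts and a filter by time group.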

Additional observations from a re-analysis of the deposited data

Results flagged for a closer look

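The DOX effect on Per3 differed between β and α cells by -1.14 ± 0.29 on the log2 scale (β minus α, adjusted p = 0.00357), and that on Cry2 by -0.45 ± 0.11 (adjusted p = 0.00174). Both stand here because the difference of the effects between the cell types was itself tested over all 48 libraries. That test treated β and α libraries of the same number as separate, although their deviations correlated in DOX mice (0.107 to 0.419). The labels do not say whether such libraries share animals. The log2 fold change of DOX over CTR was -1.16 ± 0.23 in β cells and -0.03 ± 0.16 in α cells for Per3, and -0.51 ± 0.09 in β cells and -0.08 ± 0.05 in α cells for Cry2.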

How the results depend on the processing

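No called result changed its direction under the alternatives run. Several counts of called members were lower in single runs, which hold fewer libraries. In the later run alone 0 members had a called rhythm in each of the 4 conditions, where at most 1 gene of all was called, so that this count says nothing about the members. There, 0 had a called difference of the DOX effect (1243 of 16392 genes called). Between β and α cells of CTR mice 1 was called there (9843 of 15321 genes). In the earlier run alone rhythms were called for 2 members in DOX α (62 of 12956 genes) and 1 in CTR α cells (26 of 12985). The difference of the DOX effect was called there for 1 member (2139 of 15247 genes). With 6 time levels in place of the cosine, 0 members were called in DOX β cells, where 0 of 13613 genes were called. That count says nothing about the members. In the same setting 1 was called in CTR β (33 of 13302 genes), 1 in DOX α (14 of 13280) and 2 in CTR α cells (73 of 13349). With no run term 2 were called in DOX α cells (166 of 13280 genes). Without single libraries, the rhythm counts ran from 2 to 4 in DOX β, 0 to 5 in CTR β (0 without replicate 1 of ZT8), 2 to 4 in DOX α and 3 to 5 in CTR α cells. The DOX count in β cells ran from 2 to 5, that in α cells stayed at 0, the difference stayed at 2, and β against α cells gave 3 to 4 in DOX mice and 1 to 2 in CTR mice. Rhythm differences stayed at 0 members throughout.

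Over all genes, rhythm counts went from 1576 to between 0 and 3014 in DOX β, from 288 to between 0 and 1317 in CTR β, from 375 to between 0 and 1178 in DOX α and from 600 to between 1 and 1518 in CTR α cells. The DOX count in β cells of 7122 became 3740 with the macrophage covariate, 3747 in the later and 4638 in the earlier run. That in α cells of 19 ran from 0 to 132, and the difference count of 4126 from 1243 to 4525. For rhythms, replicate number took the place of the run as a term, which differs from the run only in replicate 1 of ZT0. It kept the 3 rhythm calls in DOX β, 4 in CTR β and 4 in DOX α cells. Under it, 5 members were called in CTR α cells (Per1 added, adjusted p = 0.0376). For mean differences, libraries of the same time and replicate number formed a block. With this block, 4 members were called for DOX in β cells (Per2 added, adjusted p = 0.0486). Between β and α cells of DOX mice, where same-numbered libraries met the rule for pairing by correlation, the block changed no call among the members. Same-numbered DOX and CTR libraries correlated at -0.387 to 0.145 in β and -0.481 to 0.18 in α cells, and β and α libraries of CTR mice at 0.073 to 0.34. The low counts of Ciart limit what can be said of it in α cells.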

Other observations

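Genes that answer cAMP and other acute signals, which can also switch on Per1, were looked at beside the repressors. With DOX in β cells 3 of 10 changed, where 46.9% of all genes did. Nr4a2, a nuclear receptor, rose by 1.68 ± 0.20 (adjusted p = 1.89e-06) and Crem, a repressor induced by cAMP, by 0.64 ± 0.13 (adjusted p = 0.00061), while Btg2 fell by -0.25 ± 0.08 (adjusted p = 0.0171). In α cells 0 of 10 were called by edgeR, beside 0.127% of all genes, and 1, Crem, had an unadjusted p under 0.05. Between the cell types 8 of 10 were called in DOX mice, 2 higher and 6 lower in β cells, and 9 of 10 in CTR mice, 1 higher and 8 lower, beside 71.2% and 71.4% of all genes. Junb stood at -1.50 ± 0.22 in DOX mice and -1.47 ± 0.29 in CTR mice, and Egr1 at -1.75 ± 0.32 and -1.61 ± 0.32. Crem cycled in DOX β cells (amplitude 0.77, peak at 21.19 h), CTR β cells (0.56, 18.00 h) and CTR α cells (0.71, 19.49 h).

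Of genes induced by glucocorticoids, another known input to Per1, 3 of 5 tested changed with DOX in β cells, a count too small to set against the 46.9% of all genes. Fkbp5 fell by -0.34 ± 0.11 (adjusted p = 0.0178) and Tsc22d3 by -0.32 ± 0.12 (adjusted p = 0.0349), and Sgk1 rose by 0.45 ± 0.17 (adjusted p = 0.0385). In α cells 0 of 6 were called by edgeR, beside 0.127% of all genes, and 0 had an unadjusted p under 0.05. Fkbp5 cycled in DOX β cells (amplitude 0.66, peak at 12.05 h), DOX α cells (0.48, 12.02 h) and CTR α cells (0.49, 12.38 h), close to the peaks of Per3 and Cry2, and stood at 0.57 and 13.11 h in CTR β cells (adjusted p = 0.0598).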
